A study of Rattus norvegicus with 9 samples.

Results

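Genes of the cell division cycle were examined in rat endometrium, as a set of 50 named members that runs from the G1 cyclins through the DNA replication machinery to the genes of mitosis. The members were chosen by name, and each was read from the row of the deposited expression table that carries its symbol. Of the 50, 48 were found among 22250 rows. E2f1 and Ccnb2 had no row under those symbols and were not analysed here. All 48 had enough reads to be tested, together with 14232 genes in all, and their counts ran from 17 reads for Birc5 in the second LER+LIG library to 3690 reads for Pcna in the first. By role, the 48 were the proliferation marker Mki67, 5 D cyclins and their kinases, 3 genes of the G1/S step (Ccne1, Ccne2 and Cdk2), 3 CDK inhibitors, 15 replication genes and 21 mitotic genes.

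The tissue came from female Sprague-Dawley rats aged 10 weeks, and 3 groups of 3 poly-A libraries were sequenced. NER rats were given saline by gavage and injection, were mated, and then had olive oil. LER rats were gavaged with hydroxyurea (450 mg/kg/d, 10 days), a drug that starves DNA synthesis of deoxynucleotides, and were injected subcutaneously with adrenaline (0.3 mg/kg/d) on days 4 to 10, with olive oil once mated. LER+LIG rats had the same hydroxyurea and adrenaline and, from gestation day 0.5, gavage of LIG (40 mg/kg/d), which the series title gives as ligustilide. All 3 groups were mated, and the day on which tissue was taken is not stated in the sources used here. Setting LER beside NER addresses the effect of the drugs, and setting LER+LIG beside LER the effect of adding ligustilide. LER is shared by both, so a chance deviation of the LER libraries enters both with opposite sign.

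Libraries held 13241537 to 15354085 counts. No label states that the libraries of a group came from separate animals, so a p-value here refers to the spread between these libraries only. Markers of epithelium (11 of 11), stroma (9 of 9) and smooth muscle (7 of 7) were all at 2 CPM or more on average, with smooth muscle markers summing to 7961 to 16600 CPM. Myometrium and vessel wall, which share these genes, cannot be told apart here. Prl8a2, a decidual prolactin of rodents, was at 0 in all 9 libraries. NER replicate 3 and LER+LIG replicates 2 and 3 stood apart. The summed level of 4 oestrogen-responsive epithelial genes (Muc1, Ltf, C3 and Lcn2) was 4547, 13640 and 2319 CPM there and 26.1 to 66.9 CPM in the other 6. Ltf itself was at or near 0 in every library. The summed level of 4 progesterone-responsive genes (Ihh, Areg, Calca and Il13ra2) was lowest there, at 75.6, 39.9 and 112.7 CPM, against 273.9 to 448.6 CPM elsewhere. Most of what remained was Il13ra2 (71.0, 33.3 and 107.5 CPM), which only in LER+LIG replicate 2 lay below all of the other 6. The 9 stromal markers summed to 7222 CPM in LER+LIG replicate 2 and to 26000 to 40790 CPM elsewhere, a sum made up mostly of Col1a1 (2071 CPM there and 14650 to 22250 CPM elsewhere) and Col3a1 (1839 and 7198 to 15180 CPM). Not all 9 were low in that library: Dcn (2367 CPM) and Pdgfra (448 CPM) lay within the range of the others, and Pdgfrb was highest there (358 CPM, against 101 to 195 CPM). In RNA from a whole tissue, fewer cells of a type and less RNA per cell cannot be told apart.

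Cells enter the cycle when D cyclins bind Cdk4 or Cdk6 and phosphorylate the retinoblastoma protein, which frees E2F factors to switch on the genes of DNA replication. The kinase inhibitors encoded by Cdkn1b, Cdkn1c and Cdkn2c hold back the passage from G1 to S. The DREAM complex and B-Myb with FoxM1 are among the regulators of the mitotic genes. In rodent uterus, oestrogen drives division of the epithelium before implantation, progesterone moves division to the stroma, and in the mouse cyclin D3 is known for its part in the decidual reaction.

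Within the 48, Ccnd1 and Ccnd2 had the largest differences relative to their error when LER+LIG was set against either other group, Cdc6 had the largest between LER and NER, and mitotic genes had the widest spans over libraries. Ccnd1 and Ccnd2 were lower in each of the 3 LER+LIG libraries than in any of the 6 others. Of genes with a mean of at least 2 CPM, 9.8% were lower without overlap in LER+LIG than in LER, and 4.01% than in NER. DESeq2, the second tool run, called both cyclins lower in LER+LIG than in LER, and 1.2% of all genes. The inhibitors Cdkn1b and Cdkn1c had higher mean levels in LER+LIG than in LER. Replication and mitotic genes were split in both directions between groups. No member passed an adjusted p of 0.05 by the quasi-likelihood test of edgeR, the main test, in any comparison, so the values below describe these libraries.

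**Figure D1:**
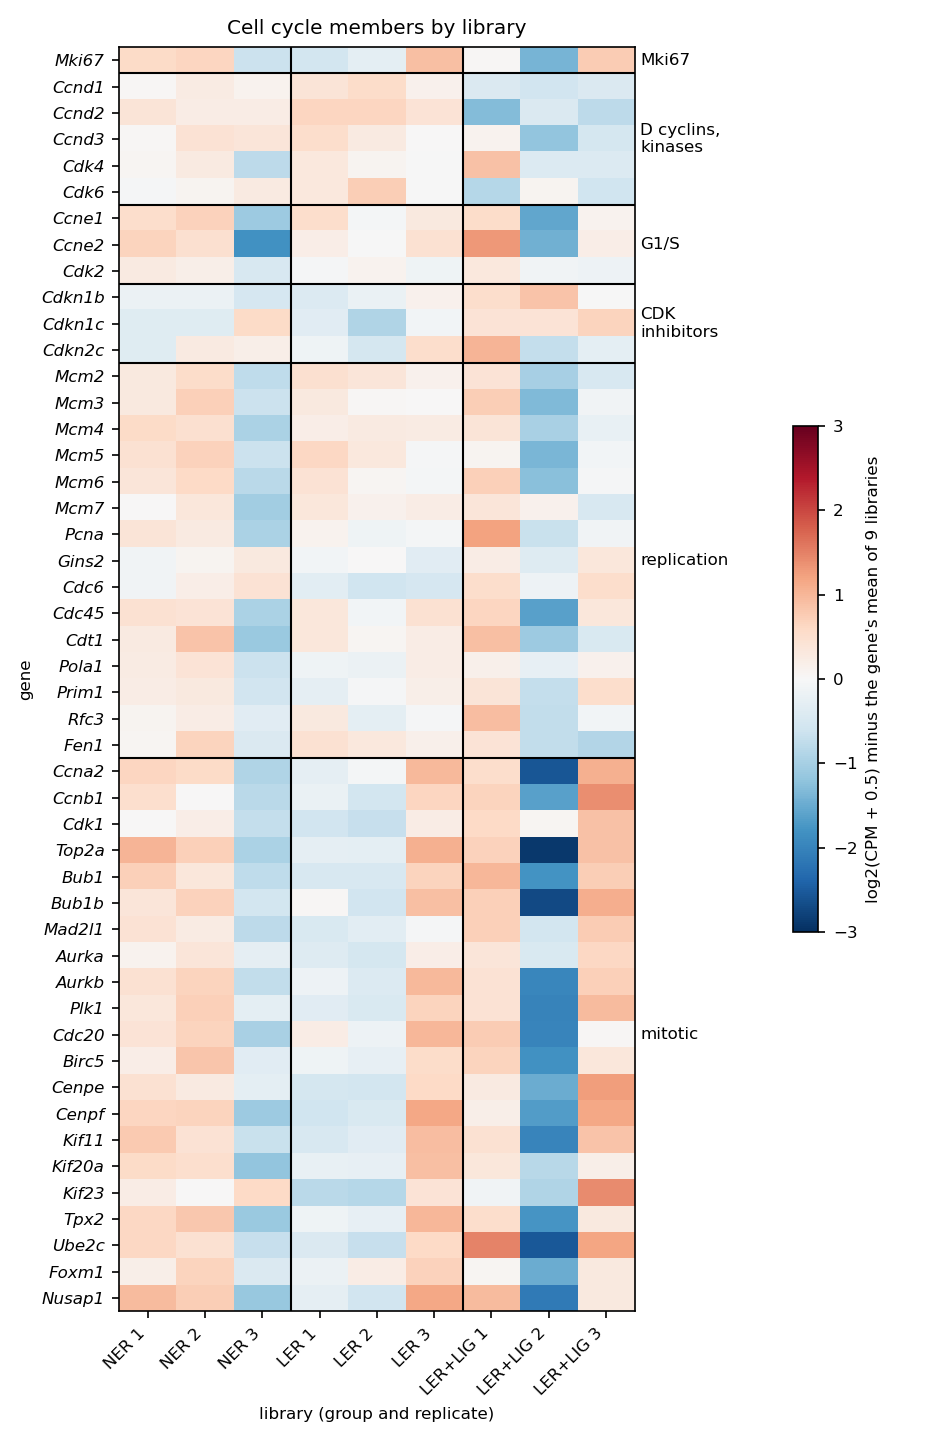
Each row is 1 of the 48 members and each column 1 library. Colour gives log2(CPM + 0.5) minus the mean of that gene over the 9 libraries, with horizontal lines between role groups and vertical lines between NER, LER and LER+LIG. The column of LER+LIG replicate 2 holds the lowest value of 31 of the 48 members and that of NER replicate 3 the lowest of 11. The share of all genes lowest in each was not counted.

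Promoters are given first for Mcm5 of the replication genes, Top2a and Cdk1 of the mitotic genes, and the D cyclin Ccnd3. Among the members matched below, Mcm5 had the most E2F matches, and Cdk1 was the only mitotic gene with any. A link between promoter letters and expression levels was not tested. RefSeq promoters of build GRCr8 (250 bases before to 50 after the gene start) were matched by symbol for 36 of the 48 members. Ccnd1, Ccnd2, Cdk6, Cdkn1c, Ccne2, Cdc6, Mcm4, Ccna2, Aurkb, Foxm1, Tpx2 and Ube2c are named only. Both strands were searched for the E2F letters TTTGGCGC, TTTCCCGC, TTTGCCGC and TTTCGCGC, for the CHR letters TTTGAA and TTCGAA of the DREAM complex, and for CCAAT, the box bound by NF-Y, counting overlapping matches. Capitals mark every match on either strand. Mcm5, a subunit of the replicative helicase, lies on the plus strand at chr19:13488563-13488862 and holds 3 E2F and 3 CCAAT matches.
Mcm5: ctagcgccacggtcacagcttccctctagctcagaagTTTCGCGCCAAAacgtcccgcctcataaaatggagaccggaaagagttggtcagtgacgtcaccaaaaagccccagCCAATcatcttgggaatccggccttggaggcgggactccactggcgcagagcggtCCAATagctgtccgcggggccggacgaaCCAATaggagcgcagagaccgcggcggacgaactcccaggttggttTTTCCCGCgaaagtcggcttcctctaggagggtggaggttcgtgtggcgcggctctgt
Top2a, the topoisomerase that untangles chromosomes at mitosis, lies on the minus strand at chr10:84473044-84473343 and holds 2 CHR and 4 CCAAT matches with 0 E2F matches.
Top2a: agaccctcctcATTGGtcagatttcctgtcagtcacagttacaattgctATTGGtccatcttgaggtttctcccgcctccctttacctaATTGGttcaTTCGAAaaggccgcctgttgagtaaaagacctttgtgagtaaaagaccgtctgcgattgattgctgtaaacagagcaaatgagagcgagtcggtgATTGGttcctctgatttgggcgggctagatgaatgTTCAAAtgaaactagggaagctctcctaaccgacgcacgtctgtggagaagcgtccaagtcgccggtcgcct
Cdk1, the kinase that starts mitosis, lies on the plus strand at chr20:19265043-19265342 and holds letters of all 3 kinds.
Cdk1: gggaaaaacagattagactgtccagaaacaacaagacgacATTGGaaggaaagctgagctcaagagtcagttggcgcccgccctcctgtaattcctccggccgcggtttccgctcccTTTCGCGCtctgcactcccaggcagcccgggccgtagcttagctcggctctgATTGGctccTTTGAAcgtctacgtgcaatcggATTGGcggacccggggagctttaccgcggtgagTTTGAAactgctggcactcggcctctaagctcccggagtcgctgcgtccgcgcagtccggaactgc
Ccnd3, a D cyclin, lies on the minus strand at chr9:20897826-20898125 and holds 1 CCAAT match only.
Ccnd3: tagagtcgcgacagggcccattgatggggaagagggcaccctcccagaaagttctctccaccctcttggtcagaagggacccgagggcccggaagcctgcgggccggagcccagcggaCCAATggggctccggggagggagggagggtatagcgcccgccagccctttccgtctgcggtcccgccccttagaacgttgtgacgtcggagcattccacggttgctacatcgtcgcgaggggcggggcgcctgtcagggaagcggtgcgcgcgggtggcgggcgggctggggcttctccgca

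E2F letters were in 8 of the 13 replication promoters at hand (61.5%) and in 1 of the 16 mitotic ones (6.25%, that of Cdk1), against 2.14% of 33469 promoters in the table. The 8 were Mcm2, Mcm3, Mcm5, Mcm6, Mcm7, Cdt1, Pola1 and Rfc3. CHR letters were in 10 of 16 mitotic promoters (62.5%) and 3 of 13 replication promoters (23.1%), against 19.7% of all. CCAAT was frequent in both, in 75% of mitotic and 76.9% of replication promoters, against 37.5% of all. CHR and CCAAT stood together in 8 of 16 mitotic promoters (50%) and in 7.95% of all. The promoter of Mki67, whose protein coats mitotic chromosomes, held 2 CHR and 4 CCAAT matches, as did that of Top2a. A match describes these letters and is not evidence of binding.

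Ccnd1 (ENSRNOG00000020918), the cyclin that couples growth factor signals to the cycle, was at 164, 189 and 171 CPM in NER, 208, 234 and 174.5 CPM in LER, and 117, 107 and 118 CPM in LER+LIG, in replicate order. The 3 LER+LIG libraries lay below all 6 others and close to each other. Group means were 174.5 ± 13.04, 205.4 ± 29.8 and 114.0 ± 6.08 CPM (SD, n = 3 each). Ccnd2 (ENSRNOG00000057710), a D cyclin known as a hormone-responsive gene of the ovary, was at 81.8, 73.3 and 72.35 CPM in NER, 97.3, 98.3 and 82.9 CPM in LER, and 24.8, 46.0 and 35.7 CPM in LER+LIG. Its 3 groups did not overlap at all, with LER highest and LER+LIG lowest, although the lowest LER library was only just above the highest NER library. Group means were 75.8 ± 5.20, 92.8 ± 8.63 and 35.5 ± 10.6 CPM (SD, n = 3 each).

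On the log2 scale, LER+LIG differed from LER by -1.39 ± 0.24 (SE) for Ccnd2, and the Benjamini-Hochberg adjusted p of edgeR's quasi-likelihood test was 0.33. For Ccnd1 the difference was -0.85 ± 0.19, with an adjusted p of 0.33 by the same test. DESeq2's Wald test called both lower, at adjusted p of 8e-05 for Ccnd2 and 0.0014 for Ccnd1. The unadjusted edgeR p was 0.00025 for Ccnd2 and 0.0013 for Ccnd1, and it stayed under 0.05 for both in all 9 fits that each omitted 1 library. The difference of Ccnd2 then ran from -1.64, without LER+LIG replicate 2, to -1.21, without LER+LIG replicate 1, and that of Ccnd1 from -0.96 to -0.76. NER replicate 3 and LER+LIG replicates 2 and 3 were left out together, a setting chosen after seeing the data that leaves 1 LER+LIG library. The differences were then -1.93 for Ccnd2 and -0.84 for Ccnd1. Stromal sums were 40790, 7222 and 32460 CPM in the LER+LIG libraries and 26000 to 40750 CPM in LER, and their part in the difference was not tested.

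Against NER, which had neither drug, LER+LIG differed by -1.09 ± 0.24 for Ccnd2 and -0.61 ± 0.19 for Ccnd1, with an adjusted p of 0.87 for each by edgeR. DESeq2 called Ccnd2 (adjusted p = 0.025). LER itself differed from NER by 0.29 ± 0.24 and 0.24 ± 0.19, with an adjusted p of 1 for each by edgeR, which is about the size of their SE. Across the whole table edgeR called 0 genes in all 3 comparisons (0% in each direction).

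The third D cyclin and the kinases were less separate. Ccnd3 was at 111, 146 and 139 CPM in NER, 157, 130.4 and 110.1 CPM in LER and 117.5, 47.6 and 75.8 CPM in LER+LIG. Its first LER+LIG library lay inside the range of LER, and the other two lay below. Cdk6 was at 9.67, 10.5 and 12.2 CPM in NER, 12.6, 16.9 and 9.81 CPM in LER and 5.23, 10.6 and 6.34 CPM in LER+LIG. Here it was the second LER+LIG library that overlapped with LER. Cdk4, the main partner of the D cyclins, was at 150.6, 172.5 and 82.9 CPM in NER, 179.7, 152.7 and 141.7 CPM in LER and 262.8, 108.7 and 108.3 CPM in LER+LIG, so that the LER+LIG libraries held both values above and values below all of LER. Differences of LER+LIG from LER were -0.72 ± 0.32 for Ccnd3, -0.82 ± 0.36 for Cdk6 and 0.017 ± 0.40 for Cdk4 on the log2 scale, and none was called by edgeR or DESeq2. That of Cdk4 was -0.03 with upper-quartile scaling. With the 3 libraries that stood apart left out, Cdk4 was at 0.70 and Cdk6 at -1.35, with 1 LER+LIG library. Left-out libraries moved Ccnd3 between -1.13 and -0.48, without LER+LIG replicate 1 and replicate 2, and Cdk6 between -1.20 and -0.61, without LER+LIG replicate 2 and LER replicate 2.

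Levels of the 5 genes were also compared per length, as FPKM. Averaged over the 9 libraries, Cdk4 stood at 164.6 FPKM, Ccnd3 at 60.3, Ccnd2 at 48.9, Ccnd1 at 24.2 and Cdk6 at 7.06 FPKM. By group, Ccnd2 was at 53.7 ± 4.71, 68.6 ± 6.61 and 24.5 ± 9.19 FPKM (SD, n = 3) in NER, LER and LER+LIG, and Ccnd3 at 69.3 ± 9.82, 72.3 ± 12.6 and 39.3 ± 13.8 FPKM. Ccnd3 and Ccnd2 therefore lay within their spread of each other in LER, and Ccnd1, at 31.3 ± 4.72 FPKM, lay below both there. In LER+LIG, Ccnd1 at 15.9 ± 1.02 FPKM lay within the spread of Ccnd2. These FPKM use 1 length per gene, which for Cdk4 was 912 bases and for Ccnd1 6866 bases.

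**Figure D2:**
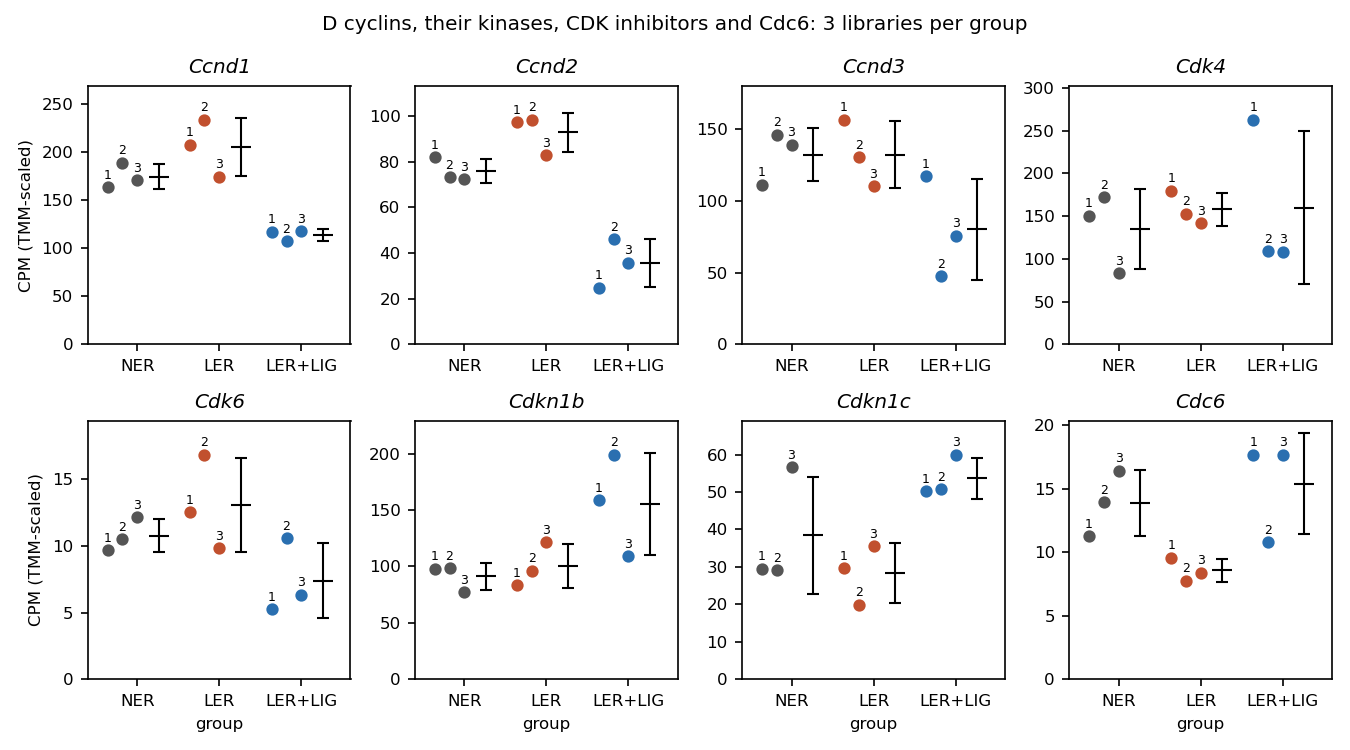
CPM (vertical axes, linear from 0) of 8 members in NER, LER and LER+LIG. Points are libraries numbered by replicate, and the bar beside them is the mean with its SD (n = 3). The blue LER+LIG points of Ccnd1 (107 to 118 CPM) and Ccnd2 (24.8 to 46.0 CPM) lie below every other point of their panels.

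All 3 CDK inhibitors among the members had a higher mean in LER+LIG than in LER, without passing the test. Cdkn1c (ENSRNOG00000059500), which encodes p57 and is an imprinted gene, was at 29.5, 29.2 and 56.6 CPM in NER, 29.65, 19.9 and 35.6 CPM in LER and 50.2, 50.8 and 60.0 CPM in LER+LIG. All LER+LIG libraries lay above all LER libraries, but NER replicate 3 reached the LER+LIG range. Cdkn1b (ENSRNOG00000007249), which encodes p27, was at 97.9, 98.4 and 77.3 CPM in NER, 83.3, 96.2 and 121.6 CPM in LER and 158.6, 199.4 and 109.0 CPM in LER+LIG. LER+LIG lay above NER in every library and overlapped with LER through LER replicate 3. Differences of LER+LIG from LER were 0.92 ± 0.32 for Cdkn1c (adjusted p = 0.36) and 0.63 ± 0.26 for Cdkn1b (adjusted p = 0.38) on the log2 scale by edgeR, and DESeq2 called neither. With the 3 libraries that stood apart left out, they were 0.79 and 0.63. That setting was chosen after seeing the data and leaves 1 LER+LIG library. Without LER+LIG replicate 2 alone the difference of Cdkn1b was 0.39. Against NER, LER+LIG differed by 0.77 ± 0.26 for Cdkn1b and 0.48 ± 0.32 for Cdkn1c, and LER by 0.14 ± 0.26 and -0.44 ± 0.32, with no call by edgeR. The -0.44 of Cdkn1c was -0.049 without NER replicate 3, its highest NER library. Cdkn2c, which encodes p18, a specific inhibitor of Cdk4 and Cdk6, ranged from 13.8 to 46.7 CPM with both ends in LER+LIG. Its higher mean there rests on replicate 1, since replicates 2 and 3 were at 13.8 and 18.7 CPM. The LER libraries were at 21.0, 15.9 and 33.0 CPM (difference 0.18 ± 0.47).

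At the G1/S step no gene differed between groups beyond its spread. Ccne2, a cyclin partner of Cdk2, was at 27.1, 23.6 and 4.41 CPM in NER, 19.4, 16.7 and 23.2 CPM in LER and 42.35, 5.92 and 19.3 CPM in LER+LIG. Its 2 lowest libraries were NER replicate 3 and LER+LIG replicate 2, and its highest over lowest library was 9.6-fold. Ccne1 was at 12.9, 14.4 and 3.83 CPM in NER, 12.8, 8.43 and 10.9 CPM in LER and 13.1, 2.65 and 9.51 CPM in LER+LIG, with the same pair of libraries lowest. Differences of LER+LIG from LER were 0.19 ± 0.73 for Ccne2 and -0.35 ± 0.62 for Ccne1, of LER from NER 0.11 ± 0.73 for Ccne2 and 0.045 ± 0.62 for Ccne1, and of LER+LIG from NER 0.29 ± 0.73 and -0.31 ± 0.62 on the log2 scale. Cdk2 ranged only from 26.5 to 46.6 CPM, and LER differed from NER by -0.037 ± 0.25.

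Among the replication genes, Cdc6 (ENSRNOG00000027787), which loads the helicase onto origins, had the smallest p in both comparisons with LER. It was at 11.3, 13.9 and 16.4 CPM in NER, 9.57, 7.76 and 8.39 CPM in LER and 17.7, 10.8 and 17.7 CPM in LER+LIG. The 3 LER libraries lay below all 6 others. LER differed from NER by -0.69 ± 0.30 (edgeR adjusted p = 1; the unadjusted p was 0.043), and LER+LIG from LER by 0.84 ± 0.30 (edgeR adjusted p = 0.36). Both differences rest on the same 3 low LER libraries. LER+LIG differed from NER by 0.15 ± 0.29. With the 3 libraries that stood apart left out, the differences were -0.56 from NER to LER and 1.01 from LER to LER+LIG. The latter then had 1 LER+LIG library.

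The 6 helicase subunits Mcm2 to Mcm7 each had a lower mean in LER+LIG than in LER, none of them past the test. The drop was not shared by LER+LIG replicate 1. There Mcm3, Mcm4, Mcm6 and Mcm7 (81.1, 80.55, 114.4 and 105.1 CPM) were above every LER library. Mcm2 (107.0 CPM) and Mcm5 were inside the range of LER in that library. Mcm5 was at 54.8, 64.9 and 25.3 CPM in NER, 61.5, 49.6 and 38.95 CPM in LER and 42.35, 15.1 and 37.6 CPM in LER+LIG. NER replicate 3 and LER+LIG replicate 2 were again its lowest libraries, and the groups overlapped. The difference of LER+LIG from LER was -0.66 ± 0.44 for Mcm5, -0.57 ± 0.41 for Mcm2, -0.41 ± 0.43 for Mcm4, -0.18 ± 0.35 for Mcm7, -0.14 ± 0.49 for Mcm6 and -0.13 ± 0.49 for Mcm3 on the log2 scale. For Mcm5 it was -0.35 without LER+LIG replicate 2. It was -0.27 with the 3 libraries that stood apart left out, which leaves 1 LER+LIG library. Mcm7 had the largest positive difference of LER from NER among the replication genes, 0.34 ± 0.35, and it was 0.037 without NER replicate 3 and 0.64 without NER replicate 2. Against NER, LER+LIG differed by -0.61 ± 0.44 for Mcm5 and by -0.47 ± 0.44 for Fen1, the nuclease that trims Okazaki fragments. Single libraries moved these values, Mcm5 to between -0.94 (without NER replicate 3) and -0.30 (without LER+LIG replicate 2), and Fen1 to between -1.05 (without LER+LIG replicate 1) and -0.12 (without NER replicate 2).

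Pcna, the sliding clamp of the polymerases, was at 173, 159 and 68.2 CPM in NER, 142, 121 and 128 CPM in LER and 306, 82.8 and 123.1 CPM in LER+LIG. The first LER+LIG library stood far above the rest and the LER libraries lay close together. Per length Pcna was the most abundant replication gene, at 123.0 FPKM on average, followed by Mcm7 at 34.5 FPKM and Prim1, the small primase subunit, at 29.5 FPKM. Cdc45, which joins the helicase when origins fire, was the least abundant at 1.30 FPKM. Its highest library was 5.75-fold its lowest, the widest span among the 15 replication genes, and Gins2, a subunit of the same helicase complex, had the narrowest at 1.66-fold. The remaining members (Cdt1, Pola1, Prim1 and Rfc3) differed between LER+LIG and LER by -0.18 to 0.20 on the log2 scale.

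Mitotic genes differed more between libraries than between groups. Mki67 was at 62.8, 65.4 and 26.7 CPM in NER, 28.4, 33.8 and 78.05 CPM in LER and 42.7, 15.5 and 71.3 CPM in LER+LIG. Each group held both high and low libraries. Differences were -0.14 ± 0.59 for LER from NER, -0.11 ± 0.59 for LER+LIG from LER and -0.26 ± 0.59 for LER+LIG from NER, and the sign of each turned when single libraries were left out. Top2a was at 117, 94.3 and 29.5 CPM in NER, 47.6, 46.7 and 119.6 CPM in LER and 93.1, 7.28 and 105.7 CPM in LER+LIG, which is a 16.4-fold span. Ube2c, the conjugating enzyme of the anaphase-promoting complex, spanned 20.2-fold, from 1.904 CPM in LER+LIG replicate 2 to 38.5 CPM in LER+LIG replicate 1, both in the same group. The median span over the 21 mitotic genes was 8.24-fold, against 3.1-fold over the 15 replication genes and 3.22-fold over the D cyclins and kinases.

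All 21 mitotic genes were higher in LER replicate 3 than in LER replicate 1, and all 21 higher than in replicate 2. Summed over the 21, levels were 315 and 299 CPM in the first and second LER libraries and 689 CPM in the third. The replication genes did not follow: 11 of 15 were higher in LER replicate 1 than in replicate 3, and their sums were 824, 729 and 727 CPM. In LER+LIG, by contrast, both kinds were lower in replicate 2 than in replicate 1, by 21 of 21 mitotic and 15 of 15 replication genes, with mitotic sums of 600, 139 and 704 CPM and replication sums of 1090, 425 and 648.5 CPM. LER+LIG replicate 2 was the lowest of all 9 libraries for 17 of the 21 mitotic and 9 of the 15 replication genes. In NER, 20 of 21 mitotic and 13 of 15 replication genes were lower in replicate 3 than in replicate 1, with mitotic sums of 589, 569 and 243.5 CPM and replication sums of 850, 950 and 423 CPM. These orders were read from the libraries and carry no test. The shares of all genes that were ordered this way, or were lowest in these libraries, were not counted.

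As a median over members of log2(CPM + 0.5) relative to the mean of the 9 libraries, mitotic genes stood at -0.27, -0.45 and 0.69 in the 3 LER libraries and replication genes at 0.30, 0.04 and 0.13. Replication minus mitotic medians were therefore 0.57, 0.49 and -0.56 in LER. The same quantity was -0.18, -0.14 and 0.09 in NER and -0.13, 1.04 and -0.95 in LER+LIG. D cyclins and their kinases stood at -0.44, -0.43 and -0.52 in the 3 LER+LIG libraries, where mitotic medians were 0.54, -1.79 and 0.86. The D cyclin median was thus alike in the LER+LIG libraries with the highest and with the lowest mitotic median. Its 5 members differed, from -1.31 to 0.87 in LER+LIG replicate 1 and from -0.79 to -0.40 in replicate 3. Their summed levels in LER+LIG were 528, 320 and 344 CPM, the first of them within the range of NER (478 to 591 CPM).

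**Figure D3:**
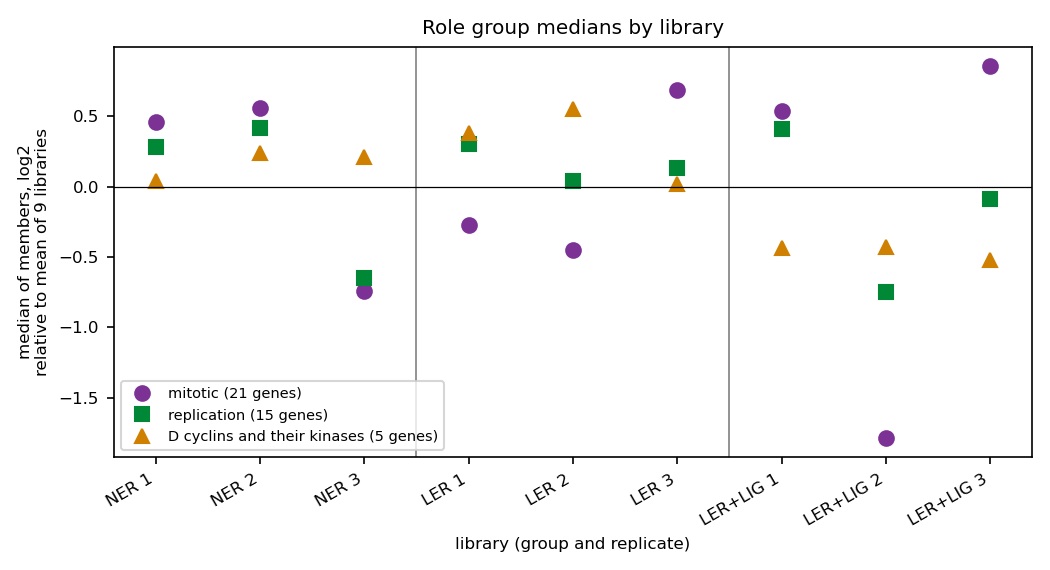
For each library (horizontal axis), symbols give the median over the members of a role group of log2(CPM + 0.5) minus each gene's mean over 9 libraries, with circles for 21 mitotic genes, squares for 15 replication genes and triangles for 5 D cyclins and kinases. Triangles lie between -0.52 and -0.43 in LER+LIG and at 0.015 or above elsewhere, while circles run from -1.79 to 0.86 within LER+LIG. A triangle hides the spread of its 5 genes, which ran from -1.31 to 0.87 in LER+LIG replicate 1.

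NER replicate 3 and LER+LIG replicate 2, the libraries with the lowest mitotic medians, also had the highest oestrogen-responsive sums, 4547 and 13640 CPM. Their epithelial sums, 3973 and 2570 CPM, were the highest too. C3 was the largest part of the former (4346 and 13040 CPM) and Krt8 of the latter (1259 and 583 CPM). Not all 11 epithelial markers were high there: Foxa2 was lowest in these libraries (9.69 and 6.73 CPM). Cldn3 (70.0 and 161 CPM) was lower there than in any library but LER+LIG replicate 3 (53.55 CPM). LER+LIG replicate 3, with the next highest oestrogen-responsive and epithelial sums (2319 and 2213 CPM), had the highest mitotic median of all. Epithelial sums of the 11 markers ranged over 712 to 3973 CPM in NER, 860 to 1477 CPM in LER and 757 to 2570 CPM in LER+LIG. Stromal sums of the 9 markers ranged over 32470 to 38120, 26000 to 40750 and 7222 to 40790 CPM in those groups. Within LER the third library, which had the high mitotic values, had the highest stromal sum (40750 CPM) and the lowest epithelial sum (859.8 CPM). LER replicate 1 had adipocyte markers at 669 CPM, against 28.1 to 114 CPM elsewhere. The part of these cell types in the mitotic and replication values was not tested.

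In group means the mitotic genes gave little. Cdk1 (ENSRNOG00000000632) was at 34.6, 39.5 and 20.7 CPM in NER, 22.7, 21.0 and 40.2 CPM in LER and 51.9, 35.7 and 62.75 CPM in LER+LIG. Its LER+LIG libraries overlapped with LER through LER replicate 3, and unlike most mitotic genes it was not lowest in LER+LIG replicate 2. LER+LIG differed from LER by 0.84 ± 0.36 (edgeR adjusted p = 0.39) and from NER by 0.66 ± 0.35 (edgeR adjusted p = 0.87). Mad2l1, of the spindle checkpoint, differed by 0.70 ± 0.44 between LER+LIG and LER, and Ccnb1, the cyclin that activates Cdk1, by 0.62 ± 0.69 between LER+LIG and NER. For LER against NER the smallest p among mitotic genes belonged to Kif23 (-0.61 ± 0.59), a kinesin of the central spindle, and Aurka (-0.30 ± 0.37), a centrosome kinase. Without LER replicate 3 these were -1.17 and -0.57, and the smallest values with 1 library left out were -0.39 for Kif23 (LER replicate 2) and -0.14 for Aurka (NER replicate 2). The difference of Mad2l1 ran from 0.49 to 1.01 without LER+LIG replicate 3 or replicate 2, and that of Ccnb1 was -0.069 without LER+LIG replicate 3. The SE of a mitotic log2 difference was as large as 0.84 for Top2a and 0.85 for Ube2c in LER+LIG against LER, while that of Ccnd1 was 0.19.

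**Figure D4:**
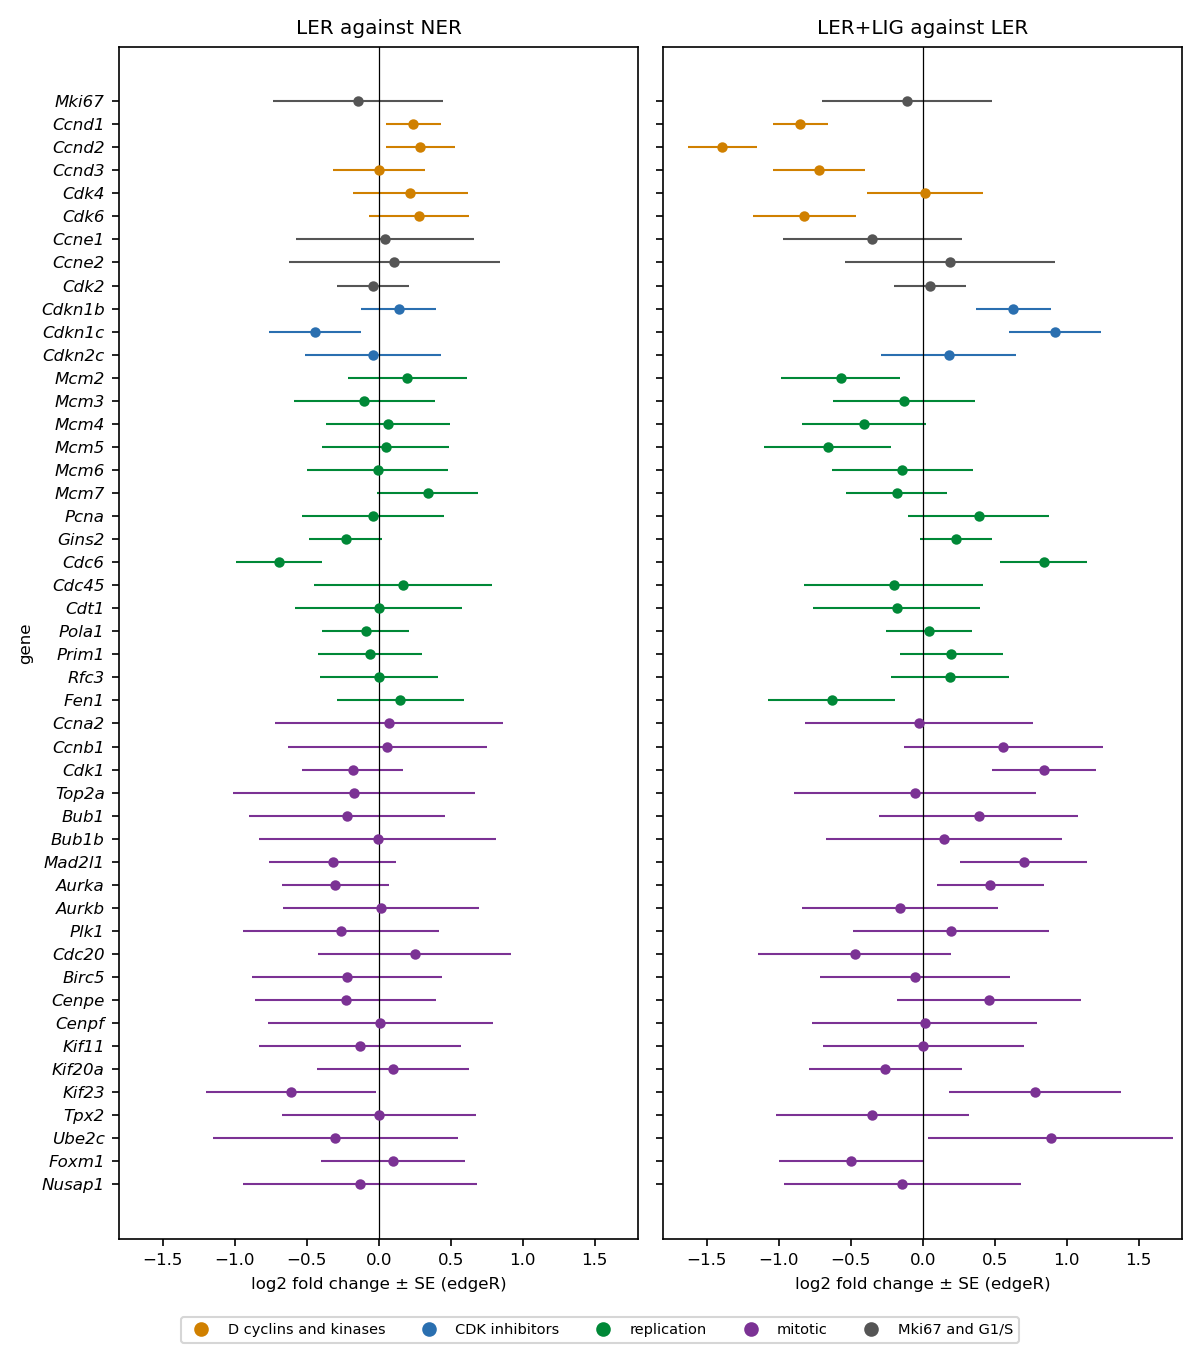
Log2 fold changes by edgeR (points) with their SE (bars) of the 48 members for LER against NER (left) and LER+LIG against LER (right), coloured by role. On the right Ccnd2 (-1.39) and Ccnd1 (-0.85) have short bars clear of 0, and most mitotic genes have bars that cross it.

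Counted over all 48 members, LER against NER had 24 higher and 24 lower by sign, with 47.1% of all genes higher and 52.9% lower. Before adjustment, edgeR had 0 members higher (0.274% of genes) and 1 lower (0.597%), Cdc6, at p under 0.05. DESeq2 called 0 members higher (0% of genes) and 0 lower (0.0141%). Groups did not overlap for 1 member higher, Ccnd2 (3.47% of 12783 genes with a mean of at least 2 CPM), and 1 lower, Cdc6 (3.31%), shares near those of all genes. The median log2 difference was -0.0024 over the members and -0.018 over all genes, and by role 0.24 for D cyclins and kinases, 0.0018 for replication and -0.13 for mitotic genes.

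LER+LIG against LER had 24 members higher and 24 lower, with 54.9% of all genes higher and 45.1% lower. Under an unadjusted p of 0.05 edgeR had 4 members higher (Cdkn1c, Cdkn1b, Cdc6 and Cdk1) and 4 lower (Ccnd1, Ccnd2, Ccnd3 and Cdk6), against 7.21% and 5.28% of genes, so the count over all 48 was near that of the table. The 4 lower members were 4 of the 5 D cyclins and kinases, and 0 of the 15 replication and 0 of the 21 mitotic genes. The role groups were chosen with earlier results of these data known, so this split carries no test. Fits that each omitted 1 library kept the unadjusted edgeR p under 0.05 in all 9 for Ccnd1 and Ccnd2. They did so in only 3 of 9 for Cdk6 and 2 of 9 for Ccnd3. Of the higher members, Cdkn1c kept it in 7, Cdc6 in 6, Cdk1 in 4 and Cdkn1b in 3 of 9. DESeq2 called 0 members higher (1.25% of genes) and 2 lower (1.2%). Groups did not overlap for 2 members higher (11%) and 2 lower (9.8%), which is below the share of all genes. The median log2 difference was -0.0099 over the members and 0.066 over all genes, and by role -0.82 for D cyclins and kinases, 0.63 for CDK inhibitors, -0.14 for replication and 0.013 for mitotic genes.

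LER+LIG against NER had 22 members higher and 26 lower, with 53.7% of all genes higher and 46.3% lower. Under an unadjusted p of 0.05 edgeR had 1 member higher (2.75% of genes), Cdkn1b, and 3 lower (2.7%), the 3 D cyclins. With 1 library omitted, the p stayed under 0.05 in 7 of 9 fits for Cdkn1b and in 2 of 9 for Ccnd3. DESeq2 called 0 higher (0.0632%) and 1 lower (0.0984%), Ccnd2. Groups did not overlap for Cdkn1b higher (4.32%) and for Ccnd1 and Ccnd2 lower (4.01%). The median log2 difference was -0.61 for D cyclins and kinases and 0.48 for CDK inhibitors, against 0.041 for all genes.

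The authors' deposited table of comparisons called 1 of the 48 members, Ccnd2, as down in LER+LIG against LER (3.34% of 13995 genes were down, and 0 members against 4.54% of genes were up), with a log2 fold change of -1.40 and p of 5.4e-06. In the authors' deposited table Ccnd1 had -0.86 with p of 0.00014, and Cdkn1c 0.91 with p of 0.0039, and neither was called. For LER against NER the authors' deposited table called 0 members up (0.329% of genes) or down (1.32%).

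Other genes of the same processes gave a like picture. Among 29 further replication genes, edgeR called 0 in any comparison, 0 had an unadjusted p under 0.05 (7.21% of all genes higher and 5.28% lower in LER+LIG against LER) and DESeq2 called 0. Their median log2 difference was 0.015 from NER to LER and -0.06 from LER to LER+LIG. Timeless, of the fork protection complex, was at 28.7, 26.5 and 21.97 CPM in LER and 15.2, 9.59 and 20.7 CPM in LER+LIG without overlap (-0.76 ± 0.41). Dnmt1 and Uhrf1, which maintain DNA methylation, and Pole, which copies the leading strand, were also lower without overlap, making 4 of 29 where 9.8% of all genes were so. Rfc4, a clamp loader subunit, had a positive difference (0.79 ± 0.45). Among 45 further mitotic genes the same tests called 0, and the medians were -0.12 and 0.12. The kinesins Kif14 (-1.43 ± 0.83) and Kif18b (-1.14 ± 0.64) had the smallest p there for LER+LIG against LER.

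Of 22 further G1 regulators tested, edgeR and DESeq2 called 0 in each comparison. Cdkn2b, which encodes p15, a further inhibitor of Cdk4 and Cdk6, had an unadjusted edgeR p of 0.029 for LER+LIG against LER (2.82 ± 1.09, adjusted p = 0.37), and the authors' deposited table called it up. It was at 0.552, 0.95 and 6.15 CPM in NER, 0.475, 1.14 and 1.99 CPM in LER and 1.495, 15.3 and 8.655 CPM in LER+LIG. Its 3 highest libraries were the 3 with high oestrogen-responsive sums, and their part in the difference was not tested. Cdkn1a, another CDK inhibitor, did not rise with LER+LIG. It differed by -0.042 ± 0.66 from LER and by -1.17 ± 0.67 from NER, where replicate 3 was highest (63.5 CPM). E2f3, an activator of the G1/S genes, was at 9.81, 10.96 and 8.54 CPM in NER, 6.99, 6.09 and 7.25 CPM in LER and 4.90, 4.69 and 8.11 CPM in LER+LIG. NER lay above both other groups without overlap, with differences of -0.53 ± 0.33 for LER and -0.73 ± 0.33 for LER+LIG from NER. E2f2 and Rbl1 were also lower in LER than in NER without overlap, so 3 of the 23 found were so, against 3.31% of all genes.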

How the data were processed

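Poly-A RNA of 9 libraries, 3 per group, was analysed, grouped and numbered by their titles. The deposited table holds read counts per gene as whole numbers, per the file headers. Its FPKM, also made by the authors, matched counts scaled by 1 length per gene and by the library total, to a relative difference of at most 3.7e-14 in 17844 rows, and served for levels between genes. The authors' deposited comparisons hold log2 fold changes with an unadjusted p-value and an up or down call. Aligner, counter, strandedness, build and the authors' test: not given in the sources used here. Reads of overlapping or antisense genes cannot be separated without strand. The 8 rows without a symbol, at most 0.00306% of counts, stayed in the counts given to the fits and were not read as members.

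Counts were tested in R 4.3.3 with edgeR 4.0.16: filterByExpr, TMM factors (0.867 to 1.05), 1 fit of all 9 libraries with robust glmQLFit, and glmQLFTest for the 3 comparisons, with Benjamini-Hochberg adjustment over 14232 genes and calls at an adjusted p under 0.05. CPM are TMM-scaled. The SE of a log2 fold change is that change divided by the root of F. DESeq2 1.42.0, other scalings, no filter, a threshold of 0.1, a replicate block and leaving out libraries were alternatives. Overlap of groups was counted for genes with a mean of at least 2 CPM. The procedure was tested on simulated counts. Libraries were compared pairwise, and the lowest chi-square per degree of freedom was 18.2, so none was a duplicate within counting noise. No batch is given in the labels.

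The members, the role groups and the further lists were chosen with earlier results of these data known. In each role group and comparison, the 2 members with the smallest p were named with their differences, and Mki67 always. Other members were named after their values were seen. Promoter letters are from RefSeq, and no coordinate was read from the authors' files.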

Additional observations from a re-analysis of the deposited data

How the results depend on the processing

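Counts of calls depended on the tool. LER against NER had 0 genes called by edgeR and 2 by DESeq2. LER+LIG against LER had 0 by edgeR, 349 by DESeq2, and 1 each with upper-quartile scaling, with no low-count filter and at an adjusted p under 0.1. Leaving out 1 library gave 0 to 1 (1 without NER replicate 3, LER+LIG replicate 1 or LER+LIG replicate 3). LER+LIG against NER had 0 by edgeR and 23 by DESeq2. Members called were 2 (Ccnd1 and Ccnd2) and 1 (Ccnd2) by DESeq2 in the last 2 comparisons, and 0 by edgeR with any 1 library left out. Leaving out NER replicate 3 and LER+LIG replicates 2 and 3 together, chosen after seeing the data, gave 3922 genes and 10 members (Ccnd1, Ccnd2, Ccne2, Cdc6, Cdk4, Cdk6, Mad2l1, Pcna, Rfc3 and Ube2c) for LER+LIG against LER, and 2731 genes and 2 members (Ccnd2 and Pcna) for LER+LIG against NER. The 1 LER+LIG library left is assumed there to vary like the other groups. Ccne2 turned to -0.36 for LER against NER and Ccne1 to 0.26 for LER+LIG against LER in that setting.

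Of 33 differences of named members, 32 kept their sign in all 6 planned settings other than leaving out libraries, and 22 with every library left out in turn. The others ran, for LER against NER, from -0.36 to 0.50 (Ccne2), -0.24 to 0.10 (Cdk2), -0.022 to 0.26 (Cdkn1b) and -0.73 to 0.12 (Mki67). For LER+LIG against LER they ran from -0.86 to 0.052 (Ccne1), -0.68 to 0.62 (Ccne2) and -0.69 to 0.47 (Mki67). For LER+LIG against NER they ran from -0.069 to 1.09 (Ccnb1), -0.80 to 0.10 (Ccne1), -0.57 to 0.72 (Ccne2) and -0.83 to 0.12 (Mki67). The cause was not tested. Equal replicate numbers were not taken as pairs in the main fit. Deviations of same-numbered libraries correlated at -0.211 to 0.545, and 8 of 18 best matches in another group had the same number. With 3 libraries per group these values cannot tell a pairing from its absence. With the replicate number as a block, 0 genes were called in each comparison and the difference of Ccne2 for LER+LIG against LER was -0.071.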
